A study of Gallus gallus with 8 samples.

Results

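Aquaporins are membrane channels through which water moves along osmotic gradients. The classical ones carry water alone, the aquaglyceroporins also carry glycerol and other small uncharged solutes, and the unorthodox ones sit mostly on membranes inside the cell. In mammalian airways they serve the water supply of the surface liquid and of gland secretion. In the trachea of chickens (Gallus gallus), the aquaporin genes were taken by name, as every gene identifier of the deposited mRNA count table that starts with AQP and a digit. This gave 9 genes of 26296 in the table, namely the water channels AQP2, AQP4, AQP5 and AQP8, the aquaglyceroporins AQP3, AQP9 and AQP10, and the unorthodox AQP11 and AQP12. Counts reached at least 20 in 1 library for 6 of them, which are called measured here, as were 15268 genes in all. The remaining members, AQP8, AQP10 and AQP12, lay under that minimum. AQP1 and AQP7 were not analysed here, and MIP, the lens aquaporin that the name rule leaves out, had 0 counts in both libraries.

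The exposed birds breathed hydrogen sulfide (H2S), an irritant gas of poultry houses, in chambers held at 3.5 to 4.5 mg/kg during weeks 0 to 3 and at 19.5 to 20.5 mg/kg during weeks 4 to 6. Control birds lived in another chamber with no added H2S, and trachea was taken from both at 42 days of age. The labels name no genetic line, sex or number of birds per library. For mRNA there was 1 library per group, both numbered 3, so no difference below has a replicate check, no test between the conditions was made and chamber and exposure cannot be told apart. Intervals are 95% exact intervals for counting error only, and ratios are H2S over control after TMM scaling, a method that evens out library size and composition.

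The libraries held 20839798 (H2S) and 18875586 (control) counts. Checked against the tissue label, the cartilage gene COL2A1 had 198018 counts in the H2S library, against 165713 in the control library, and all 12 epithelial markers with a row had counts. The summed levels of some cell type markers differed between the libraries. Skeletal muscle markers summed to 17641 CPM (a gene's counts per 1000000 TMM-scaled counts) in the H2S library, against 11769 CPM in the control library, with 12 of 13 measured members above a ratio of 1, and cartilage markers summed to 25343 CPM in the H2S library, against 20077 CPM in the control library. The median ratio of all measured genes was 0.9995, so measured genes split almost evenly around 1. Counts of list members above or below 1, here and below, were not tested. In whole tissue, fewer cells of a type and less RNA per cell cannot be told apart. Because the RefSeq gene table of the GRCg7b assembly places AQP3 on the sex chromosome Z, a difference in sex between the libraries could show in it. The W-linked gene HINTW had 0 counts in both libraries. The 3 measured genes placed on W summed to 2042 counts in the H2S library, against 2391 in the control library, with a median ratio of 1.51. The median ratio was 0.986 over 598 measured Z genes, against 1.001 over 11688 measured genes placed elsewhere. miR-2954, a Z-linked miRNA that is high in male birds, was at 1693 CPM in H2S small RNA library 3 and at 2686 CPM in control small RNA library 3, within a range of 283 to 3536 CPM over all 6 small RNA libraries.

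AQP2 differed most among the measured aquaporins. Of the 6, 1 (AQP2) was at least 2-fold higher in the H2S library, where 4.71% of all measured genes were, and 1 (AQP9) was at least 2-fold lower, where 3.71% of all measured genes were. The other 4 lay within 2-fold. The median log2 ratio of the 6 was 0.10, against 0.00 over all measured genes. With 6 members these counts describe the genes one by one and say little about the family.

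AQP2 is, in mammals, the vasopressin-regulated water channel of the kidney collecting duct, which moves to the apical membrane when the hormone acts. It had 111 counts in the H2S library, against 4 in the control library. These amount to 5.42 CPM (4.46 to 6.53) in the H2S library, against 0.208 CPM (0.0567 to 0.533) in the control library, intervals that lie far apart. The ratio was 26.0 (9.88 to 97.2), with a wide interval because of the 4 control counts. AQP2 passed the minimum of 20 counts in the H2S library alone. Of the measured genes, 12, AQP2 included, had a ratio as high, although genes with 0 control counts enter that ranking at a bound. As the minimum admits genes through their higher library, the rank is a description and no support for the difference. Among genes with at least 50 and under 250 counts in the library where they were higher, the range that holds AQP2, AQP9 and AQP11, 6.12% were past 2-fold on the higher side and 6.07% on the lower side. Both shares are above those of the whole table.

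AQP5 and AQP4, the other measured water channels, differed less. AQP5, the apical water channel of mammalian salivary and airway glands, had 1786 counts in the H2S library, against 950 in the control library. Its level was 87.2 CPM (83.2 to 91.3) in the H2S library, against 49.5 CPM (46.4 to 52.7) in the control library. The ratio of 1.76 (1.63 to 1.91) stayed under 2-fold, and 6.54% of measured genes had a ratio as high. AQP4, found in mammals on the basolateral side of airway epithelium, on astrocytes and on fast muscle fibres, had 736 counts in the H2S library, against 627 in the control library. At 35.9 CPM (33.4 to 38.6) in the H2S library, against 32.6 CPM (30.1 to 35.3) in the control library, its intervals overlapped, and the ratio was 1.10 (0.988 to 1.23). AQP8, a channel of mammalian gut and pancreas, had 0 counts in both libraries, which leaves room for up to 0.180 CPM in the H2S library, against 0.192 CPM in the control library (upper ends of the exact intervals).

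**Figure D1:**
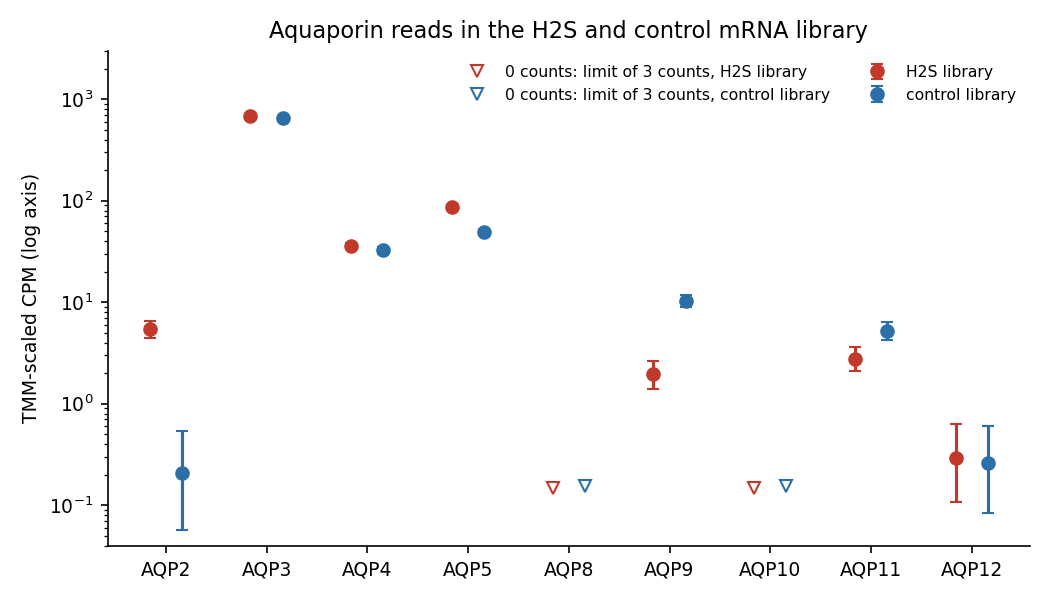
Level of each of the 9 aquaporin genes in the H2S (left, red) and control (right, blue) mRNA library, in TMM-scaled CPM on a log axis, with 95% exact counting intervals; open triangles mark 0 counts at a floor of 3 counts. AQP2 stood at 5.42 CPM in the H2S library, against 0.208 CPM in the control library, AQP9 at 1.95 CPM in the H2S library, against 10.3 CPM in the control library, and AQP3 at 683 CPM in the H2S library, against 658 CPM in the control library. Heights of different genes are not comparable, because the counts are not divided by transcript length.

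Among the aquaglyceroporins, AQP3 was nearly level and AQP9 was lower in the H2S library. AQP3, the channel of the basal cells of many stratified and airway epithelia in mammals, had 13983 counts in the H2S library, against 12637 in the control library. It stood at 683 CPM (671 to 694) in the H2S library, against 658 CPM (647 to 669.5) in the control library. The ratio of 1.04 (1.01 to 1.06) is small beside the effect of scaling, since scaling by total counts turned its log2 ratio of 0.05 to 0.00. AQP9, a channel for glycerol and other solutes known from mammalian liver and white blood cells, had 40 counts in the H2S library, against 197 in the control library. Its level was 1.95 CPM (1.40 to 2.66) in the H2S library, against 10.3 CPM (8.87 to 11.8) in the control library, without overlap of the intervals. That is 5.25-fold lower (3.72 to 7.57) in the H2S library, and 0.583% of measured genes had a ratio as low. AQP10, an intestinal channel in humans, had 0 counts in both libraries.

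The unorthodox AQP11, which lies in the endoplasmic reticulum in mammals, had 57 counts in the H2S library, against 101 in the control library. Its level was 2.78 CPM (2.11 to 3.61) in the H2S library, against 5.26 CPM (4.28 to 6.39) in the control library, and the intervals did not overlap. The ratio of 0.529 (0.376 to 0.739) was just short of the 2-fold threshold, whose bound of 0.5 lies inside the interval. AQP12, known from the exocrine pancreas of mammals, had 6 counts in the H2S library, against 5 in the control library. Its ratio of 1.13 (0.286 to 4.66) means that no difference was detectable at this depth.

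All aquaporin genes together took 16719 counts in the H2S library, against 14521 in the control library, which is 0.0802% of all counts in the H2S library, against 0.0769% in the control library. Their summed ratio was 1.08 (1.06 to 1.10). AQP3 supplied most of these reads, with 83.6% (83.1 to 84.2, exact binomial interval) in the H2S library, against 87.0% (86.5 to 87.6) in the control library. AQP5 supplied 10.7% (10.2 to 11.2) of the aquaporin reads in the H2S library and 6.54% (6.15 to 6.96) in the control library. AQP4 kept nearly the same share, at 4.40% (4.10 to 4.72) in the H2S library, against 4.32% (3.99 to 4.66) in the control library. AQP2 made up 0.664% in the H2S library, against 0.0275% in the control library, while AQP9 made up 0.239% in the H2S library, against 1.36% in the control library. Summed by class, the water channels had a ratio of 1.56 (1.47 to 1.66), of which AQP5 supplied most reads, and the aquaglyceroporins one of 1.02 (1.0004 to 1.05), set by AQP3. The unorthodox pair had a ratio of 0.557 (0.401 to 0.768). These are shares of reads and not of molecules, since no transcript lengths were used.

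**Figure D2:**
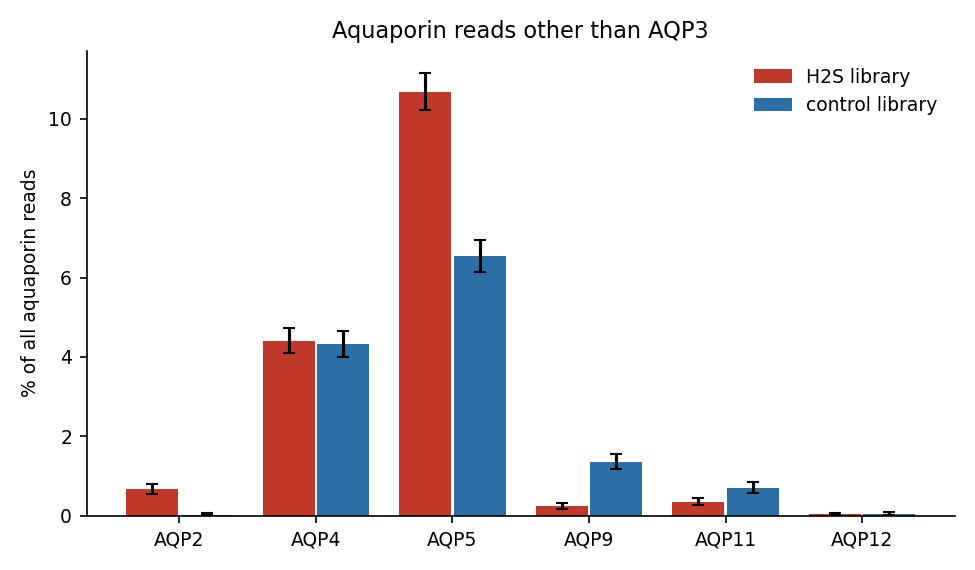
Share of all aquaporin reads (%) taken by each aquaporin other than AQP3, AQP8 and AQP10 in the H2S (left bar, red) and control (right bar, blue) mRNA library, with 95% exact binomial intervals. AQP5 took 10.7% in the H2S library, against 6.54% in the control library, AQP9 took 0.239% in the H2S library, against 1.36% in the control library, and AQP4 was nearly level.

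Setting one aquaporin against another within each library removes any effect of library scaling. Of the 15 pairs that the 6 measured genes form, 14 had an interval of the ratio of ratios that leaves out 1, and the 1 pair whose interval holds 1 was AQP3 with AQP4. The pairs reuse the same 6 genes, and these intervals too cover counting error only. The share among pairs of other measured genes was not computed, so the count is not read as a feature of the family. There were 0.0622 reads of AQP2 per read of AQP5 in the H2S library, against 0.00421 in the control library, a 14.8-fold difference (5.58 to 55.3). Reads of AQP5 per read of AQP3 differed 1.70-fold (1.56 to 1.85) between the H2S and the control library. For AQP3 against AQP9, both aquaglyceroporins, there were 350 reads of AQP3 per read of AQP9 in the H2S library, against 64.1 in the control library, a 5.45-fold difference (3.86 to 7.87). AQP2 and AQP9 stood farthest apart, with 2.775 reads of AQP2 per read of AQP9 in the H2S library, against 0.0203 in the control library. The order of the 6 ratios, from AQP2 through AQP5, AQP4, AQP3 and AQP11 to AQP9, is thus free of the choice of scaling.

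**Figure D3:**
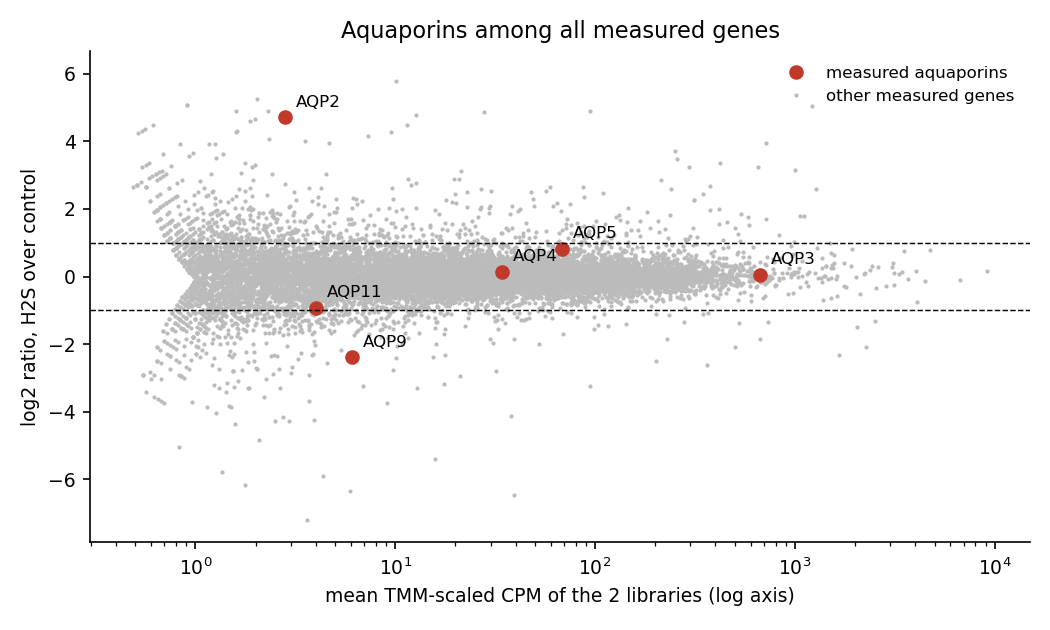
Log2 ratio of H2S over control against the mean TMM-scaled CPM of the 2 libraries (log axis) for the measured aquaporins (red, named) and the other measured genes (grey), 15268 genes in all, with dashed lines at 2-fold. AQP2 lies at 4.70 and AQP9 at -2.39, outside the 2-fold lines, AQP11 at -0.92 and AQP5 at 0.82 lie just inside, and AQP3 and AQP4 lie near 0.

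AQP2 and AQP5 neighbour each other in the GRCg7b gene table, with no gene between them and no overlap. FAIM2, the gene on the other side of AQP2, had 317 counts in the H2S library, against 184 in the control library, a ratio of 1.62 (1.34 to 1.95), and BCDIN3D beyond it had a ratio of 0.985 (0.776 to 1.25). LOC100858942, the gene beyond AQP5, had 0 counts in both libraries. The neighbours with counts had ratios of 0.985 to 1.76, below the lower bound of 9.88 for AQP2. Few measured genes had ratios as high as that of AQP2, so this says nothing about the region. AQP3 lies between PINLYP, with a ratio of 0.393 (0.315 to 0.488), and NOL6, with 1.17 (1.06 to 1.29). AQP9 is overlapped by a long non-coding gene that was not analysed here. AQP11 overlaps another one, LOC107055756, which had 4 counts in each library. As strandedness is not given in the sources used here, reads of AQP9 or AQP11 and of the overlapping gene cannot be told apart.

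Genes of the vasopressin signalling that governs AQP2 in mammalian kidney were set beside it. The receptor AVPR2 had 11 counts in the H2S library, against 30 in the control library, a ratio of 0.344 (0.155 to 0.706). The hormone gene AVP and the other hormone receptors AVPR1A and AVPR1B had 0 counts in both libraries. Counts in trachea do not show whether hormone made elsewhere reached it, so action of the hormone was not tested. Over the list of vasopressin and cAMP signalling genes, AVPR2 was the 1 of 9 measured members past 2-fold, on the lower side, and the median log2 ratio was -0.22. In the whole table of measured genes these shares were 4.71% on the higher side and 3.71% on the lower side. In lists of this size 0 or 1 member past 2-fold is near the share of the whole table. This holds for each such list count below. The phosphodiesterase PDE4D, which breaks down cAMP, had a ratio of 0.590 (0.550 to 0.632), and the cyclase ADCY3, which makes it, one of 1.145 (0.926 to 1.42). CREB1, a transcription factor switched on by cAMP signalling, was at 0.888 (0.831 to 0.947).

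Kidney and lung markers were added after the values of AQP2 were seen. Of 9 kidney markers, UMOD, PAX2 and SLC34A1 were at 0 in both libraries, and all 9 summed to 8.40 CPM in the H2S library, against 7.60 CPM in the control library. Of 8 lung markers, SFTPC and CLDN18 were at 0 in both libraries, and the whole list summed to 368 CPM in the H2S library, against 388 CPM in the control library. One lung marker, the surfactant protein gene SFTPA1, was also higher in the H2S library. It had 1097 counts there, against 35 in the control library, a ratio of 29.4 (21.005 to 42.4). With 1 library per group, whether SFTPA1 and AQP2 vary together cannot be told. The other 5 measured lung markers had ratios of 0.613 to 0.928. The measured genes with a symbol whose pair of levels lay nearest to AQP2 over the 2 libraries were also picked after the values were seen. They were SRRM4 (90 counts in the H2S library, against 5 in the control library), MRPS34 (136 in H2S, 8 in control) and TUBA8B (52 in H2S, 4 in control). Their distances were 0.442, 1.04 and 1.09 on the log2 scale, and each passed the count minimum in the H2S library alone.

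For AQP9, markers of the cells that carry it in mammals were set beside it. Leukocyte markers had a median log2 ratio of -0.42 over 6 measured members, summing to 1373.5 CPM in the H2S library, against 1782 CPM in the control library, with CD3E and CD3D lowest at ratios of 0.676 and 0.678 and CD79B and PTPRC highest at 1.60 and 1.06. A list of genes taken as heterophil and macrophage markers was added after the values were seen. Whether each of them, MPO included, marks these cells in chickens was not checked. In it MPO and MARCO had ratios of 0.388 (0.180 to 0.784) and 0.414 (0.298 to 0.570), and CSF3R and S100A9 had ratios of 1.57 and 1.84. The 8 genes summed to 31.4 CPM in the H2S library, against 31.8 CPM in the control library. Liver markers, added likewise, summed to 18.2 CPM in the H2S library, against 173 CPM in the control library, and their median log2 ratio was -2.78, beside -2.39 for AQP9. Of 7 measured members, 6 were at least 2-fold lower, as were 3.71% of all measured genes. The 6 were FGA, FGB, FGG, VTN, TAT and HNF4A, and the median is the value of VTN. HNF4A had 25 counts in the H2S library, against 63 in the control library, a ratio of 0.372 (0.224 to 0.600). Because the list was picked after the values were seen, the count is not read as an enrichment, nor the median as a link to AQP9. The summed level of the liver markers follows FGB, FGG and VTN, with 85, 15 and 166 counts in the H2S library and 1384, 595 and 1073 in the control library. ALB, the most abundant transcript of liver, had 31 counts in the H2S library, against 27 in the control library, and APOH, KNG1 and OTC were at 0 in both. TAT, a tyrosine-degrading enzyme of liver, had 27 counts in the H2S library, against 124 in the control library, a ratio of 0.204, close to that of AQP9. The part of any of these cells in the AQP9 difference was not tested. Nearest to AQP9 in their pair of levels were CCDC121 (47 counts in the H2S library, against 140 in the control library), LGALS2 (59 in H2S, 183 in control) and XCL1 (50 in H2S, 142 in control).

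Of the markers of epithelial cells, which carry AQP3 and AQP5 in mammals, the general ones differed little. Epithelium markers had a median log2 ratio of -0.08, with 0 of 11 measured members past 2-fold, KRT19 and EPCAM lowest at ratios of 0.718 and 0.819 and PROM1 and GRHL2 highest at 1.29 and 1.16. Taken relative to that median, AQP5 had a log2 ratio of 0.90 and AQP3 one of 0.13. Basal epithelium markers, the home of AQP3 in mammals, had a median log2 ratio of -0.25, with TP63, the master regulator of basal cells, at a ratio of 0.490 (0.446 to 0.537), ITGB4 at 0.595, KRT5 at 1.16 and KRT14 at 2.29 (1.93 to 2.73). Secretory and gland cell markers showed a median log2 ratio of 0.00 over 9 measured members. Their summed level was 1610 CPM in the H2S library, against 2210 CPM in the control library. PIGR, the member with most counts, had a ratio of 0.617 (0.606 to 0.627). Among the measured members SPDEF, a transcription factor of mucus cells, and CREB3L1 were highest at 1.40 and 1.17. AGR3 and BPIFB4 were lowest at 0.180 and 0.296, from 5 and 12 counts in the H2S library and 26 and 38 in the control library. Multiciliated cell markers had a median of -0.23, with all 10 measured members below a ratio of 1, from TEKT1 and SPAG6 at 0.709 and 0.743 to DNAI2 and DNAI1 at 0.918 and 0.967. The part of these cells in the AQP5 difference was not tested.

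Ion transport sets the osmotic gradient that aquaporins follow. In the list of airway salt and water transport genes, 0 of 18 measured members were past 2-fold either way, 12 were below a ratio of 1 and the median log2 ratio was -0.15. A count of 0 in 18 is near the 4.71% higher and 3.71% lower of all measured genes and is read as no feature of the list. The proton pump ATP12A, which acidifies the airway surface, had the lowest ratio at 0.521 (0.501 to 0.542), from 3937 counts in the H2S library, against 7084 in the control library. The chloride channel CFTR was at 0.595 (0.507 to 0.696). SLC26A4, an anion exchanger, and ATP1B4 were highest at 1.56 (1.08 to 2.26) and 1.25 (1.14 to 1.37). The ratio of 1.76 for AQP5 was higher than each of the 18 measured, although the interval of SLC26A4 reached above it. Of the listed genes under the count minimum, SCNN1D had a higher ratio of 7.97 (1.89 to 71.1). It had 17 counts in the H2S library, against 2 in the control library. SGK1 was at 2.34 (0.676 to 10.2) and CLCN2 at 1.41 (0.334 to 6.78). SCNN1A had 1 count in the H2S library, against 0 in the control library. Tight junction genes, which seal the path between cells, had a median log2 ratio of 0.05 with 0 of 10 past 2-fold. CLDN1 was highest in that list at 1.60 (1.55 to 1.64), and TJP3 and MARVELD2 lowest at 0.733 and 0.769.

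The genes of the complex that anchors AQP4 in muscle and astrocyte membranes had ratios near that of AQP4. Their median log2 ratio was 0.12 over 11 measured members, beside 0.14 for AQP4, and 0 were past 2-fold. DMD and DTNB were highest at 1.53 and 1.52, and SGCB lowest at 0.897. Skeletal muscle markers had a median log2 ratio of 0.55, from LMOD2 and MYBPC1 at ratios of 0.823 and 1.01 to MYL1 and MYOZ1 at 1.998 and 2.10. The part of muscle in the AQP4 level was not tested.

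Osmotic stress genes had a median log2 ratio of 0.09 with 0 of 9 past 2-fold, again near the share over all measured genes. HSPA4L and AKR1B1, which makes the osmolyte sorbitol, were highest at 1.45 and 1.37, and SLC38A2 and SLC2A1 lowest at 0.819 and 0.833. Genes that make, store or break down glycerol lipids, the partners of the aquaglyceroporins, had a median log2 ratio of -0.09 with 0 of 11 past 2-fold. PLIN1, a lipid droplet coat protein of fat cells, and GPD2 were highest at 1.72 and 1.46, and GPAM and DGAT2, which build triglycerides, were lowest at 0.604 and 0.660. Each of these ratios lies above the upper bound of 0.269 for AQP9. As 0.583% of measured genes had a ratio as low as that of AQP9, this says nothing about a link to it. Among the listed genes, those nearest to AQP3 in their pair of levels were VWF and SLC38A2, at distances of 0.277 and 0.407 on the log2 scale, with 2 libraries as the only basis.

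**Figure D4:**
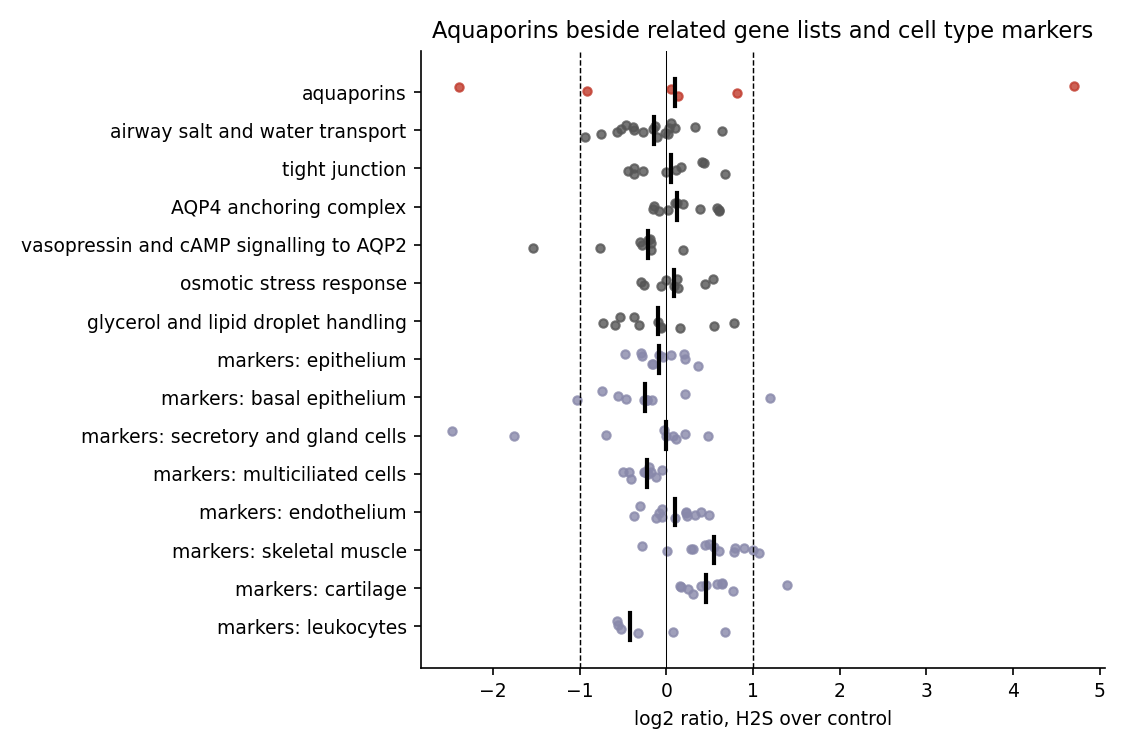
Log2 ratio of H2S over control for each measured aquaporin (red, top row), each measured member of 6 related gene lists (dark grey) and each measured member of 8 lists of cell type markers (blue-grey), with black bars at the medians and dashed lines at 2-fold. The aquaporins run from -2.39 to 4.70 with a median of 0.10, while the ion transport, tight junction, AQP4 anchoring, osmotic stress and glycerol lists stay within 2-fold.

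The markers of other cells that the trachea holds gave the following. Endothelium markers had a median log2 ratio of 0.10 over 13 measured members, from CLDN5 and VWF at ratios of 0.774 and 0.808 to PLVAP and ERG at 1.32 and 1.40. Fat cell markers had a median of 0.22, with CIDEA and LEPR lowest at 0.737 and 0.881 and THRSP and PLIN1 highest at 2.10 and 1.72. Cartilage markers had a median of 0.46, with COL9A1 and COL2A1 lowest at 1.11 and 1.12 and MATN3 and ACAN highest at 2.63 and 1.70. Glia and nerve markers had a median of 0.30, from PMP22 and S100B at 1.03 and 1.04 to SOX10 and NEFL at 1.36 and 1.56. Red blood cell markers had a median of 1.01 over 4 measured members, from HBAD at 0.960 and SLC4A1 at 1.91 to HBAA at 2.13 and H1F0 at 5.29, and summed to 34.8 CPM in the H2S library, against 17.9 CPM in the control library.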

How the data were processed

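Per the file headers and labels, the deposited mRNA table gives the authors' raw counts per gene for 1 H2S and 1 control trachea library, and the small RNA table raw counts of mature miRNAs for 3 libraries of each. Per the submitters' processing notes, HISAT2 and BWA were used. Not given in the sources used here are versions, genome build, annotation, counting tool and strandedness. Library factors came from TMM in edgeR 4.0.16 (R 4.3.3). Ratios carry 95% exact conditional binomial (Clopper-Pearson) intervals, and levels exact Poisson intervals, computed with scipy 1.17.1. These cover counting error only. Measured genes had at least 20 counts in 1 library, the threshold was 2-fold, and a count of 0 was set to 3 counts. The procedure was tested on simulated data that held counting error only, so spread between birds or libraries was not covered.

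The members and lists (6 related gene lists, 11 marker lists, and 4 marker lists added later) were chosen with earlier results of these data known. Named were every aquaporin, the 2 highest and 2 lowest measured members of each list, and the 3 listed genes nearest to AQP3, the aquaporin with most counts. A few genes that this rule names are not reported here. RefSeq GRCg7b served for names, placement on chromosomes and neighbours only. Coding lengths and protein sequences were not used here, so levels of different genes were not ranked. From the small RNA table, miR-2954 alone was used, as CPM of the library total (its counts per 1000000).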

Additional observations from a re-analysis of the deposited data

How the results depend on the processing

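With 1 library per group, nothing here can be checked against replicates, and leaving out a library was not possible. No paired analysis was possible because each group compared has 1 mRNA library. Scaling by total counts, upper quartile or DESeq2 1.42.0 size factors, or taking ratios relative to the median of all measured genes or of the epithelium markers, kept the direction of all 6 measured aquaporins, and 28 of 30 values stayed inside the counting interval of the main value. The exceptions were both AQP3, whose log2 ratio was 0.0032 with total counts and 0.135 relative to the epithelium markers. Of 16 counts of aquaporins past the threshold under other minimums, scalings and thresholds, those with a threshold of 1.5-fold moved, to 2 higher (AQP2 and AQP5) and 2 lower (AQP9 and AQP11). Each of these settings shifts all genes by the same amount, so the 30 values rest on 1 shift per setting. On the log2 scale the shift from TMM was -0.050 for total counts, 0.013 for upper quartile and 0.010 for DESeq2 size factors. All 18 list medians therefore had to move by less than 0.1, which is no check of the lists. The planned ranking of the aquaporins per coding length was not run, as no lengths were used here.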
